A study of Rattus norvegicus with 16 samples.

Results

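A set of 9 genes of calcium-dependent synaptic signalling was followed in rat hippocampal neurons given lentiviruses to lower or to raise PRR7, a postsynaptic transmembrane protein. The 9 genes encode the CaMKII subunits (Camk2a, Camk2b, Camk2d and Camk2g), the nuclear kinase CaMKIV (Camk4), the calmodulin-binding proteins neurogranin (Nrgn) and GAP-43 (Gap43), a calcineurin catalytic subunit (Ppp3ca) and DARPP-32 (Ppp1r1b). They were taken by gene name from the array, which carried 14 probes for them among 41012 probes for transcripts. All 9 genes had at least 1 probe past the filters on dim and missing values, and they were tested among 22925 genes.

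The samples were primary hippocampal neuronal cultures from Sprague-Dawley embryos of embryonic day 18 to 19, of either sex. Knockdown cultures received a pTRIP lentivirus with an shRNA against the PRR7 coding region, overexpression cultures received full-length PRR7 in the FUGW lentivirus, nontargeting cultures received a nontargeting shRNA, and the last group was not transduced. There were 4 samples in each of the 4 groups, 16 in all. No label names an empty FUGW virus among these samples, so the overexpression cultures and the cultures that were not transduced differ both in virus and in PRR7. Nothing in the labels says that the 4 samples of a group came from separate cultures, so p-values measure only the spread between these samples, which may be technical.

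RNA was measured on 8 two-colour Agilent arrays, each holding 2 samples of 1 group in Cy3 and Cy5. Knockdown and nontargeting arrays shared slide 1, and overexpression and not transduced arrays shared slide 2. Samples of the same slide are therefore compared only where knockdown is set against nontargeting, or overexpression against cultures left without virus. The other 4 comparisons run across slides, so that slide and group cannot be told apart there. The share of probes well above background was 49.2% to 69.6% over the samples. Their median net signals were 73.2 to 150 intensity units. Hybridisation intensities were used, so the number of arrays, not a count of reads, limits the precision. No probe on the array was named Prr7, so the knockdown and the overexpression could not be checked here. Neuronal Map2 and the excitatory transporter gene Slc17a7 were well above background in all 16 samples, as was the astrocyte gene Gfap, while the microglial gene Aif1 was above background in 0 samples. Of 8 listed microglial genes, however, 4 passed the filters and were tested.

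Calcium entering a spine through NMDA receptors binds calmodulin, which then activates CaMKII and the phosphatase calcineurin. CaMKII adds phosphate to receptors and scaffolds during potentiation, and calcineurin, together with protein phosphatase 1 downstream, removes it during depression. Neurogranin holds calmodulin on the postsynaptic side and GAP-43 binds it in axons and growth cones, CaMKIV carries the calcium signal to CREB in the nucleus, and DARPP-32 becomes an inhibitor of protein phosphatase 1 once protein kinase A has phosphorylated it.

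Camk4 and Ppp1r1b were read by only 1 probe each, and the probes of Camk2a and of Camk2b differed in their results. Whether the results depend on the stretch of the transcript that was read was not tested. Of the 60-base probes, 4 are printed. They are given 5′ to 3′ as in the deposited array files, all in lower case. Coordinates are those of the array files on build rn4.
Camk2a probe 2: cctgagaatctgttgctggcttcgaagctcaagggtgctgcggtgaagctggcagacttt
Camk2b probe 2: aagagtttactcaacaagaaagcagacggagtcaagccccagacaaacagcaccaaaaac
Camk4: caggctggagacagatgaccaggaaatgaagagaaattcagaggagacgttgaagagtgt
Ppp1r1b: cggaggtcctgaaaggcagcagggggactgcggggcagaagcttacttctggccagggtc
The Camk2a probe 2 sequence covers chr18:56903621-56918266 on the plus strand, a span of 14646 bases, so it joins sequence from separate exons. Camk2b probe 2 covers chr14:86645232-86645447 on the minus strand, a span of 216 bases, and so crosses an intron as well. The Camk4 probe lies without a gap at chr18:25625515-25625574 on the plus strand. The Ppp1r1b probe covers chr10:87129321-87130656 on the plus strand, a span of 1336 bases. Each of these 4 probes has at least 1 forward reading frame without a stop codon. Whether a probe lies in coding or untranslated sequence was not looked up, since no rn4 annotation was used here.

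The largest difference among the 9 genes was in Camk4, which was about 2-fold higher in knockdown cultures than in overexpression cultures and in cultures that were not transduced. Nrgn and Ppp3ca were lowest in the nontargeting cultures. The means of Ppp1r1b were higher in the 2 groups of slide 1, which received an shRNA, than in the 2 groups of slide 2, which did not. Its knockdown values passed the test against neither group of slide 2. Camk2a, Camk2d, Camk2g and Gap43 passed the test in none of the 6 comparisons. All levels below are normalized log2 intensities, and differences are log2 values of the first named group minus the second, with limma p-values adjusted over all 22925 genes and a threshold of 0.05. Levels of different probes cannot be set against each other, because each probe binds with its own strength.

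**Figure D1:**
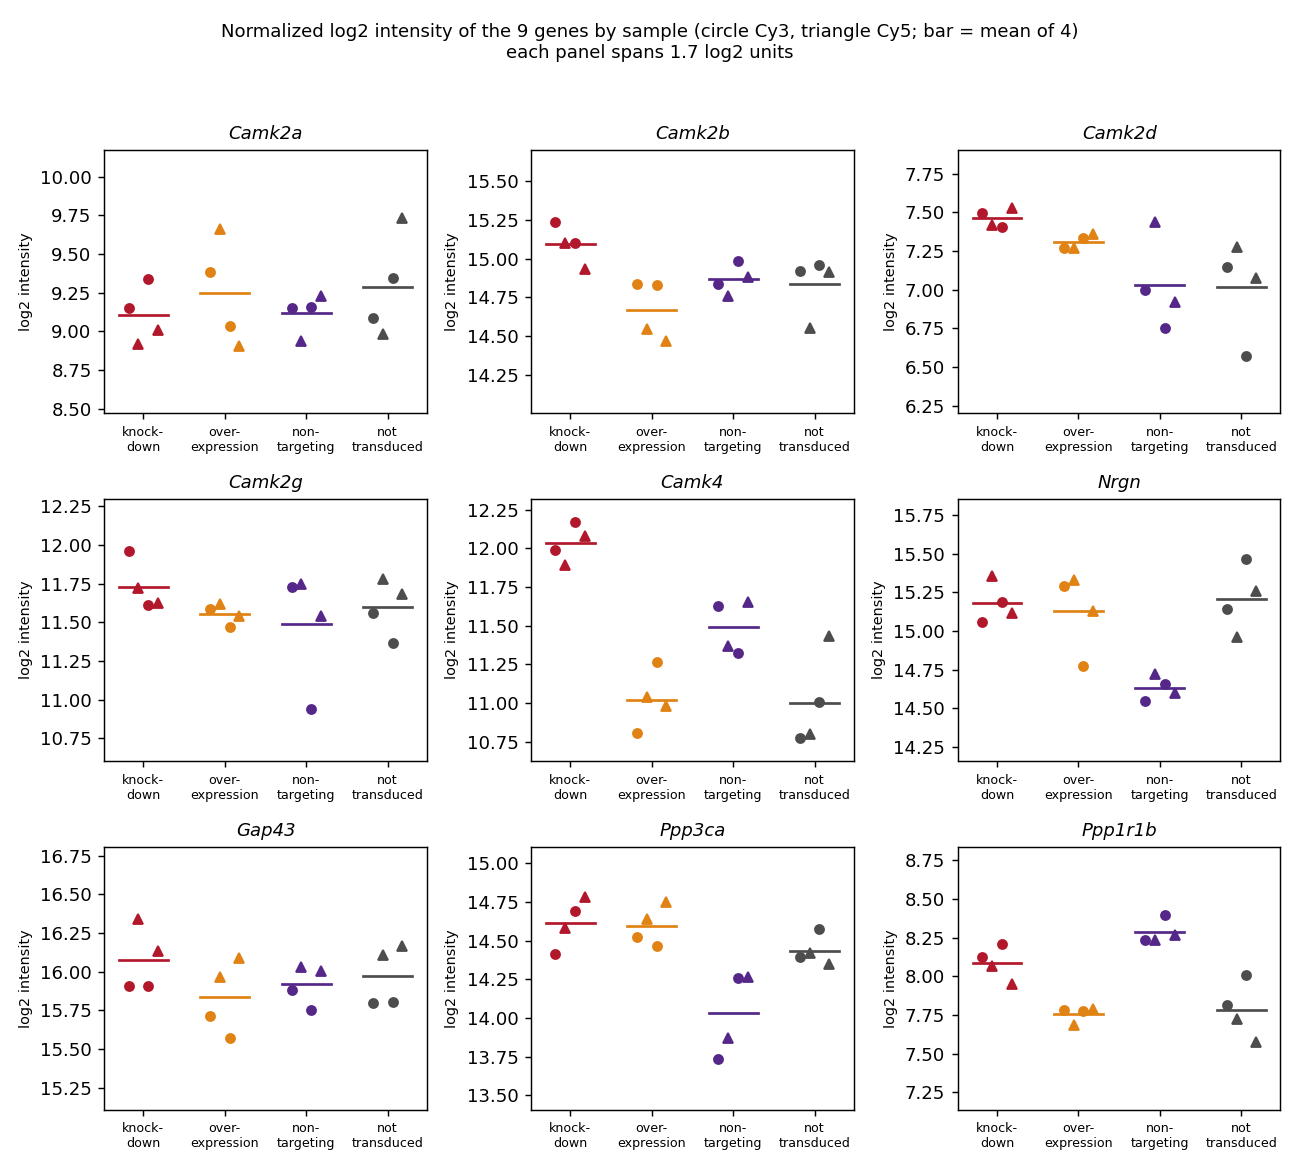
Normalized log2 intensity (y axis) of the 9 genes in each sample, by group (x axis), for the brightest probe of each gene; circles are Cy3 samples, triangles Cy5 samples and bars the means of 4. Camk4 sits between 11.89 and 12.17 in all 4 knockdown samples, above the other 12 samples, and Nrgn sits between 14.55 and 14.72 in the nontargeting samples, below the other 12.

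CaMKII is built from subunits of 4 genes, of which Camk2a and Camk2b supply most of the enzyme in forebrain neurons. Camk2b read 15.24, 15.10, 15.10 and 14.93 in knockdown, 14.84, 14.55, 14.83 and 14.47 in overexpression, 14.84, 14.76, 14.99 and 14.88 in nontargeting, and 14.92, 14.55, 14.96 and 14.91 in not transduced samples on its brightest probe. Every knockdown value lay above every overexpression value, while the nontargeting and not transduced values overlapped with both. Camk2b was higher in knockdown than in overexpression cultures by 0.43 (95% interval 0.16 to 0.69; limma adjusted p = 0.0391), a comparison across slides. This call was lost without any 1 of knockdown replicates 1 to 4 or of overexpression replicates 2 and 4, with limma adjusted p between 0.0543 and 0.0783. It was also lost without any 1 of the 4 arrays of these groups and in 6 other settings, and the difference was 0.16 with the mean of all probes of the gene (limma adjusted p = 0.368). On the same slide, knockdown against nontargeting gave 0.23 (-0.03 to 0.49; limma adjusted p = 0.217) and overexpression against not transduced gave -0.17 (-0.43 to 0.10; limma adjusted p = 1.00).

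The other probes of Camk2b did not show the difference. Probe 2, printed above, averaged 12.50 ± 0.20 in knockdown, 12.55 ± 0.18 in overexpression, 12.49 ± 0.24 in nontargeting and 12.71 ± 0.22 in not transduced samples (SD, n = 4 each). Its difference between knockdown and overexpression was -0.04 (limma p adjusted over all probes = 0.924). Probe 3 averaged between 7.09 and 7.20 and was well above background in only 2 knockdown and 2 nontargeting samples, so it is dim.

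Camk2a was read by a probe printed on 10 spots per array and by the single-spot probe 2. The 10-spot probe read 9.15, 8.92, 9.34 and 9.01 in knockdown, 9.38, 9.66, 9.03 and 8.91 in overexpression, 9.15, 8.94, 9.16 and 9.23 in nontargeting, and 9.09, 8.98, 9.35 and 9.73 in not transduced samples. The groups overlapped in all 6 comparisons, and the differences ran from -0.18 (knockdown against not transduced) to 0.13 (overexpression against nontargeting). The same-slide intervals were -0.51 to 0.48 for knockdown against nontargeting and -0.53 to 0.45 for overexpression against not transduced. These intervals do not exclude changes of up to about 0.5 in either direction. The SD over its spots, without those flagged as outliers, had a median of 0.17 over samples, with a range of 0.04 to 0.44. The highest values, 0.44 and 0.38, were in nontargeting replicates 3 and 4, which were read on the same array.

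Probe 2 of Camk2a gave a different order of groups. It read 9.27, 9.01, 8.996 and 9.03 in knockdown, 8.75, 8.35, 8.71 and 8.67 in overexpression, 8.69, 8.76, 8.89 and 9.01 in nontargeting, and 8.52, 8.45, 8.16 and 8.72 in not transduced samples. Knockdown values lay above all overexpression and all not transduced values, with differences of 0.46 (limma p adjusted over all probes = 0.175) and 0.61 (0.0730 by the same test), and neither passed the test. The first probe minus the second was 0.03 ± 0.21 in knockdown, 0.63 ± 0.49 in overexpression, 0.28 ± 0.13 in nontargeting and 0.83 ± 0.33 in not transduced samples (SD, n = 4 each). Thus the 2 probes of Camk2a ranked the groups in opposite order, with knockdown lowest on the 10-spot probe and highest on probe 2, though no difference passed the test on either.

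**Figure D2:**
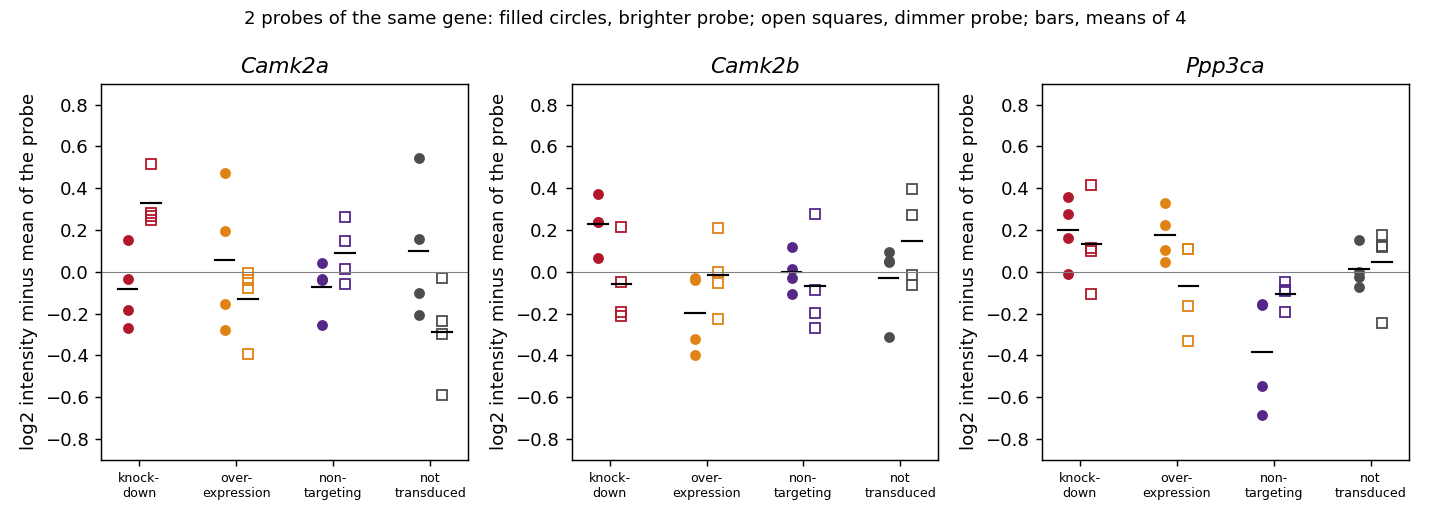
Log2 intensity minus the mean of the probe over all 16 samples (y axis), by group (x axis), for the 2 brightest probes of Camk2a, Camk2b and Ppp3ca; filled circles are the brighter probe, open squares the dimmer one, bars the means of 4. The Camk2a probes run in opposite directions from knockdown to not transduced samples, and for Ppp3ca the low nontargeting values are deeper on the brighter probe.

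Camk2g, a subunit found in many tissues, averaged 11.73 ± 0.16 in knockdown, 11.55 ± 0.06 in overexpression, 11.49 ± 0.38 in nontargeting and 11.60 ± 0.18 in not transduced samples (SD, n = 4 each). The nontargeting spread came largely from replicate 3, at 10.94, against 11.54 to 11.75 in the other 3 nontargeting samples. Its differences lay between -0.11 and 0.24, and no comparison passed the test.

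Camk2d, the other widely expressed subunit, was close to background. Its tested probe was well above background in 3 knockdown, 2 overexpression, 1 nontargeting and 1 not transduced samples. It read 7.498, 7.42, 7.40 and 7.53 in knockdown, 7.27, 7.27, 7.33 and 7.36 in overexpression, 6.998, 7.44, 6.75 and 6.92 in nontargeting, and 7.14, 7.27, 6.57 and 7.07 in not transduced samples. The knockdown values lay above all overexpression and all not transduced values, but not above the second nontargeting replicate. Knockdown against nontargeting gave 0.43 (0.05 to 0.82; limma adjusted p = 0.107), and 0.53 without nontargeting replicate 2, when it passed the test (limma adjusted p = 0.0387). With loess alone it was 1.30 and passed (limma adjusted p = 0.0110), but all genes shifted by 0.63 in that setting, and Camk2d stood 0.67 above that shift. With the scanner software's processed signals the difference was 1.47, which is 1.58 above the median of all genes there, and it did not pass. The size of this difference thus varied widely with the processing. A second Camk2d probe did not pass the filter, because it was well above background only in nontargeting replicates 3 and 4, at 8.61 and 7.86, which were read on 1 array.

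Camk4 encodes the kinase that phosphorylates CREB in the nucleus. It read 11.99, 11.89, 12.17 and 12.08 in knockdown, 10.81, 11.04, 11.26 and 10.98 in overexpression, 11.63, 11.37, 11.32 and 11.65 in nontargeting, and 10.77, 10.80, 11.004 and 11.43 in not transduced samples. All 4 knockdown values were above the other 12, and the nontargeting values were above all overexpression values but overlapped with the highest not transduced sample, replicate 4. Camk4 was higher in knockdown than in not transduced cultures by 1.03 (0.58 to 1.48; 2.04-fold; limma adjusted p = 0.00605) and higher in knockdown than in overexpression cultures by 1.01 (0.56 to 1.46; 2.02-fold; limma adjusted p = 0.00657). Both comparisons run across slides.

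On the same slide, Camk4 was 0.54 higher in knockdown than in nontargeting cultures (0.09 to 0.99), which did not pass the test (limma adjusted p = 0.0825), although the 2 groups did not overlap. It passed when not transduced replicate 4, a sample outside that comparison that enters the shared spread, was left out (limma adjusted p = 0.0383), or when the array holding it was left out (limma adjusted p = 0.0423). It also passed in the series matrix (0.80, which is 0.65 above the median of all genes there; limma adjusted p = 0.0132). With loess alone it was 0.87 (limma adjusted p = 0.0467), but the median of all genes shifted by 0.63 in that setting, and Camk4 stood 0.24 above it. Overexpression against not transduced gave 0.02 (-0.43 to 0.47; limma adjusted p = 1.00). In order of level, knockdown stood first, nontargeting second, and overexpression and not transduced cultures last with 11.02 ± 0.19 and 11.003 ± 0.30 (SD, n = 4 each). The step between nontargeting and not transduced was 0.49 (limma adjusted p = 0.109), and 0.62 without not transduced replicate 4, when it passed (limma adjusted p = 0.0232). The 2 calls of Camk4 were kept in 32 of 35 other settings each. They were lost with loess alone, in which they were 0.93 (limma adjusted p = 0.0697) and 1.01 (limma adjusted p = 0.223), and without the knockdown array of replicates 3 and 4. Leaving out the not transduced array of replicates 1 and 2 ended the call in knockdown against not transduced, and leaving out the overexpression array of replicates 1 and 2 ended it in knockdown against overexpression, with limma adjusted p of at most 0.223 over all settings.

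Markers of dividing cells were also highest in the knockdown cultures, but were lowest in the nontargeting cultures, where Camk4 stood second. Of 8 tested genes of that list, 7 rose and 0 fell in knockdown against nontargeting (median 1.44), 5 rose and 0 fell in knockdown against not transduced (median 0.83), and 5 rose and 0 fell in knockdown against overexpression (median 0.83), while 0 rose and 4 fell in nontargeting against not transduced (median -0.63). Their summed level, over the 7 genes with a value in all samples, was 12.81 to 13.24 in knockdown, 11.69 to 12.02 in overexpression, 10.85 to 11.16 in nontargeting and 11.45 to 12.08 in not transduced samples on the log2 scale. Mki67, a defining gene of the list, was not matched on the array. The part of dividing cells in the Camk4 difference was not tested, and in RNA from whole cultures a change in the number of cells of a type cannot be told apart from a change in RNA per cell. By the root mean square difference of centred log2 values over the 16 samples, the 3 genes most like Camk4 among 20436 were Chaf1a (0.170), which encodes a subunit of chromatin assembly factor 1, the unnamed transcript CR466498 (0.176) and the chemokine gene Cxcl1 (0.176). Chaf1a averaged 12.33 in knockdown, 11.20 in overexpression, 11.73 in nontargeting and 11.32 in not transduced samples. In the same order, CR466498 averaged 7.91, 7.15, 7.41 and 7.12, and Cxcl1 7.91, 6.98, 7.39 and 7.05. The genes were chosen for likeness to Camk4, so their order of groups follows from the choice. It is no test of the part of dividing cells.

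Neurogranin, a postsynaptic protein that binds calmodulin when calcium is low, was lowest in the nontargeting cultures. Nrgn read 15.06, 15.35, 15.18 and 15.12 in knockdown, 15.29, 15.33, 14.77 and 15.13 in overexpression, 14.55, 14.72, 14.66 and 14.60 in nontargeting, and 15.14, 14.96, 15.47 and 15.26 in not transduced samples. The nontargeting values lay below all 12 others, and the other 3 groups overlapped. Nrgn was higher in knockdown than in nontargeting cultures by 0.55 (0.17 to 0.93; 1.46-fold; limma adjusted p = 0.0401), and lower in nontargeting than in not transduced cultures, at -0.57 (-0.96 to -0.19; limma adjusted p = 0.0312). Overexpression against nontargeting gave 0.50 and did not pass (limma adjusted p = 0.0576). These comparisons share the nontargeting samples.

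The Nrgn calls stood close to the threshold and were kept in 23 and 25 of 35 other settings, with limma adjusted p of up to 0.204 for knockdown against nontargeting and 0.210 for nontargeting against not transduced. Knockdown against nontargeting was lost without knockdown replicate 2 or 3 or nontargeting replicate 1 or 4 (limma adjusted p 0.0677 to 0.0792). Nontargeting against not transduced was lost without nontargeting replicate 1 or 4 or not transduced replicate 1 or 3 (limma adjusted p 0.0535 to 0.0571). Overexpression against nontargeting passed without overexpression replicate 3 or not transduced replicate 2 or 3 (limma adjusted p 0.0151 to 0.0473). With loess alone, the median of all genes shifted by 0.63 between knockdown and nontargeting, and Nrgn stood only 0.01 above that shift. Knockdown and not transduced cultures differed by -0.03 (-0.41 to 0.35), and knockdown and overexpression cultures by 0.05 (-0.33 to 0.43).

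Gap43, the gene of a growth-cone protein with a calmodulin-binding motif like that of neurogranin, passed in no comparison. It averaged 16.07 ± 0.21 in knockdown, 15.84 ± 0.24 in overexpression, 15.92 ± 0.13 in nontargeting and 15.97 ± 0.20 in not transduced samples (SD, n = 4 each). The groups overlapped in all comparisons, and the differences lay between -0.13 and 0.24. The 0.24 was for knockdown against overexpression (95% interval 8.3e-05 to 0.47, limma adjusted p = 0.194). Within each dye these groups did not overlap. Cy3 values were 15.91 and 15.91 against 15.71 and 15.57, and Cy5 values 16.34 and 16.13 against 15.97 and 16.09. In the series matrix this difference was 0.63 and passed (limma adjusted p = 0.0306), and stood 0.27 above the median of all genes there. The Gap43 probe was printed on 10 spots per array. The SD over the spots not flagged as outliers had a median of 0.13 and a range of 0.04 to 0.45. It was highest in nontargeting replicates 3 and 4, at 0.45 and 0.33, as for Camk2a. Its 95% interval for knockdown against nontargeting, -0.08 to 0.39, was narrower than that of Nrgn.

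Calcineurin is the calcium- and calmodulin-dependent phosphatase, and Ppp3ca encodes its main catalytic subunit in brain. Ppp3ca read 14.41, 14.58, 14.69 and 14.78 in knockdown, 14.52, 14.64, 14.47 and 14.75 in overexpression, 13.73, 13.87, 14.26 and 14.27 in nontargeting, and 14.39, 14.42, 14.57 and 14.35 in not transduced samples. As for Nrgn, the nontargeting samples were below the other 12. Within nontargeting, replicates 1 and 2, read on the same array, were lower than replicates 3 and 4 of the other array. Ppp3ca was higher in knockdown than in nontargeting cultures by 0.58 (0.25 to 0.91; limma adjusted p = 0.0138) and higher in overexpression than in nontargeting cultures by 0.56 (0.23 to 0.89; limma adjusted p = 0.0167). Nontargeting against not transduced gave -0.40 (limma adjusted p = 0.0770), which passed without not transduced replicate 4 (-0.47; limma adjusted p = 0.0317).

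The knockdown call of Ppp3ca was kept in 31 of 35 other settings. It was lost with each array as 1 value (limma adjusted p = 0.0588), with the scanner software's processed signals (0.33; limma adjusted p = 0.258), and without the knockdown array of replicates 3 and 4 or the nontargeting array of replicates 1 and 2. The overexpression call was kept in 27 of 35, and was lost with loess alone, processed signals, the series matrix, each array as 1 value, the mean of all probes, and without either overexpression array or the nontargeting array of replicates 1 and 2 (limma adjusted p up to 0.499). With loess alone, in knockdown against nontargeting, Ppp3ca stood 0.07 above the shift of all genes. A dimmer second Ppp3ca probe averaged 8.82 ± 0.22 in knockdown, 8.62 ± 0.22 in overexpression, 8.58 ± 0.06 in nontargeting and 8.73 ± 0.19 in not transduced samples (SD, n = 4 each). On it, knockdown against nontargeting gave 0.24 (limma p adjusted over all probes = 0.350) and overexpression against nontargeting gave 0.04, and it passed in no comparison.

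DARPP-32 is the phosphatase 1 inhibitor best known from striatal projection neurons. Its gene had higher means in knockdown and nontargeting cultures than in overexpression and not transduced cultures. The former shared a slide and received an shRNA, and the latter shared the other slide and received none. Slide and shRNA thus cannot be told apart here. Ppp1r1b read 8.12, 8.07, 8.21 and 7.95 in knockdown, 7.78, 7.69, 7.78 and 7.79 in overexpression, 8.24, 8.23, 8.40 and 8.27 in nontargeting, and 7.81, 7.72, 8.01 and 7.58 in not transduced samples. The nontargeting values were above all others, the knockdown values came next, and only not transduced replicate 3 reached into the knockdown range. Ppp1r1b was higher in nontargeting than in not transduced cultures by 0.50 (0.24 to 0.76; limma adjusted p = 0.00862) and lower in overexpression than in nontargeting cultures, at -0.52 (-0.79 to -0.26; limma adjusted p = 0.00661), both across slides. On the same slide, knockdown against nontargeting gave -0.19 (-0.46 to 0.07; limma adjusted p = 0.296) with groups that did not overlap, and overexpression against not transduced gave -0.02 (-0.28 to 0.24; limma adjusted p = 1.00).

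Knockdown exceeded not transduced by 0.31 (limma adjusted p = 0.131) and overexpression by 0.33 (limma adjusted p = 0.103). Without not transduced replicate 3 both passed, at 0.38 (limma adjusted p = 0.0309) and 0.33 (limma adjusted p = 0.0456). Both also passed in the series matrix, at 0.80 (limma adjusted p = 0.0153) and 1.02 (limma adjusted p = 0.00164). These are 0.60 and 0.66 above the median of all genes there. Knockdown against overexpression passed as well with only the groups compared (limma adjusted p = 0.0434) and without the not transduced array of replicates 3 and 4 (limma adjusted p = 0.0449). With loess alone the 2 calls of Ppp1r1b were lost, at 0.31 (limma adjusted p = 0.553) and -0.12 (limma adjusted p = 0.761), but relative to the median of all genes in that setting they were 0.52 and -0.48. Both were lost without the nontargeting array of replicates 3 and 4, and each without the array of replicates 1 and 2 of the other group. With only the 2 groups compared, nontargeting against not transduced missed the threshold (limma adjusted p = 0.0543). The scanner software's processed signals gave 1.05 and -1.04, about 2 times the sizes above. Drd1, the dopamine receptor gene of striatal neurons that also hold DARPP-32, was well above background in 2 knockdown, 0 overexpression, 2 nontargeting and 0 not transduced samples. Of 9 tested genes of the striatal list, 1 rose and 1 fell in nontargeting against not transduced, and 0 rose and 2 fell in overexpression against nontargeting. Its summed level was 14.15 to 14.33 in knockdown, 14.00 to 14.30 in overexpression, 13.82 to 14.05 in nontargeting and 14.15 to 14.48 in not transduced samples. The part of such cells in the Ppp1r1b difference was not tested.

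**Figure D3:**
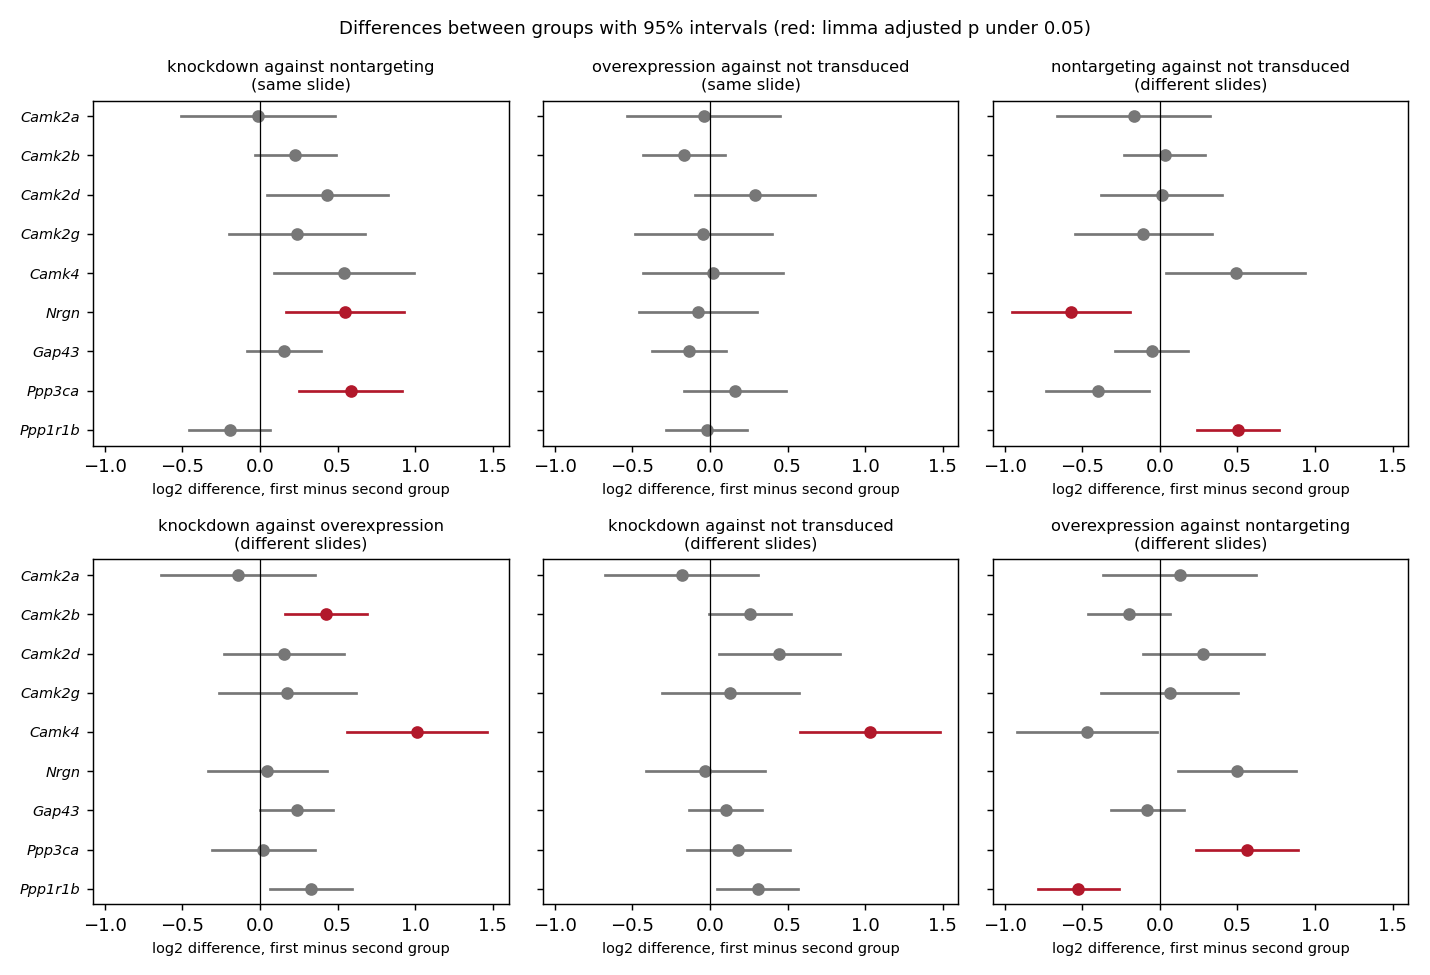
Log2 difference (x axis, first named group minus second, with 95% intervals) of the 9 genes (y axis) in the 6 comparisons; red marks a limma adjusted p under 0.05. No gene is red in overexpression against not transduced, and Camk4 at 1.03 and 1.01 is the only one whose difference reaches 1.

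Counted by comparison, 2 of the 9 genes rose and 0 fell in knockdown against nontargeting, where 21.5% of all genes were called. None was called in overexpression against not transduced, where 1 gene of 22925 was (0.00436%), and 894 genes had an unadjusted p under 0.05. In nontargeting against not transduced 1 rose and 1 fell, beside 22.5% of all genes. In knockdown against not transduced 1 rose, beside 10.1%. In overexpression against nontargeting 1 rose and 1 fell, beside 22.8%, and in knockdown against overexpression 2 rose, beside 10.5%. In each comparison the number called among the 9 genes thus differed by about 1 gene or less from what the share of all genes gives for 9. The values of the groups did not overlap for 4, 0, 3, 2, 4 and 4 of the 9 genes in these comparisons in the same order, beside 36.3%, 6.12%, 31.2%, 28.4%, 36% and 35.5% of the genes with a value in all 16 samples.

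The median difference of the 9 genes was 0.24 in knockdown against nontargeting and -0.04 in overexpression against not transduced, beside -0.02 and -0.01 for all genes. To ask whether the 2 same-slide differences were unlike, they were subtracted from each other. Knockdown is set against a nontargeting shRNA there, and overexpression against cultures without virus. The result therefore mixes PRR7 with the presence of a virus. None of the 9 genes passed that test, in which 9.89% of all genes were called (5.55% higher and 4.34% lower). The largest such difference was in Nrgn, at 0.62 (0.09 to 1.16; limma adjusted p = 0.145), followed by Camk4 at 0.52 (-0.11 to 1.16; limma adjusted p = 0.322).

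A further 60 genes of the same signalling were listed, among them calmodulins, other CaM kinases, CaMKII inhibitors, calcineurin subunits and regulators, phosphatase 1 subunits, protein kinases A and C, and Ras regulators. Of these, 59 were tested, and Nos1 did not pass the filters. In knockdown against nontargeting 11 rose (18.6%, beside 10.5% of all genes) and 5 fell (8.47%, beside 11% of all genes), with a median of 0.12. The largest rises were in Pcp4l1, the gene of a calmodulin-binding peptide relative (1.25), Prkca, protein kinase C alpha (1.07), Camk1d, a CaM kinase I isoform (0.95), and Rasgrf2, a calcium-dependent Ras activator (0.86). The largest falls were in Rcan1, a calcineurin regulator (-0.75), Ppp1cb, a phosphatase 1 catalytic subunit (-0.69), Ppp3cb, the beta catalytic subunit of calcineurin (-0.65), and Nfatc4, a calcineurin-dependent transcription factor (-0.52). Ppp3cb thus fell in the comparison in which Ppp3ca rose.

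Prkca averaged 8.93 in knockdown, 8.69 in overexpression, 7.86 in nontargeting and 8.74 in not transduced samples, and Rcan1 averaged 11.47, 11.59, 12.23 and 11.37 in the same order. In both genes the nontargeting group stood apart from the other 3. Pcp4l1 averaged 9.70 in knockdown, 9.43 in overexpression, 8.44 in nontargeting and 9.95 in not transduced samples. In nontargeting against not transduced, 8 rose (13.6%, beside 11.5% of all genes) and 11 fell (18.6%, beside 10.9%). The largest rises were in Rcan1 (0.85), Adcy8, a calcium-stimulated adenylyl cyclase (0.73), Ppp1r2, a phosphatase 1 inhibitor (0.62), and Ppp1r9b, spinophilin (0.60). The largest falls were in Pcp4l1 (-1.51), Prkar1b, a protein kinase A regulatory subunit (-1.28), the calmodulin-binding protein gene Marcks (-0.96), and Ppp3r1, the calcineurin regulatory subunit (-0.87). In overexpression against nontargeting 8 rose and 8 fell (13.6% each, beside 10.5% and 12.3%), with Prkar1b (1.27) and Marcks (1.13) the largest rises and Adcy8 (-0.87) and Ppp1r9b (-0.76) the largest falls. In nontargeting against not transduced, second probes did not pass for Marcks (-0.31), Ppp3r1 (-0.33), Ppp1r2 (0.52) and Ppp1r9b (0.42). The second probes of Marcks and Ppp1r9b passed in no comparison in which these genes are named here. Ppp3r1 had only 2 not transduced values.

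In knockdown against not transduced 3 rose and 1 fell (5.08% and 1.69%, beside 4.87% and 5.24%), namely Adcy8 (0.67), Pcp4 (0.63), Rasgrf2 (0.52) and Marcks (-0.64). Without not transduced replicate 4, 7 rose. In knockdown against overexpression 5 rose and 1 fell (8.47% and 1.69%, beside 5.77% and 4.69%), with Dgkz, a diacylglycerol kinase (0.83), Adcy8 (0.81) and Pcp4 (0.80) at the top and Marcks (-0.81) the fall. With the replicate number as a block, 5 rose in knockdown against not transduced and 9 in knockdown against overexpression. In overexpression against not transduced 0 rose and 0 fell.

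Camk2n1, a CaMKII inhibitor, gave 0.16 (-0.22 to 0.55) in knockdown against nontargeting and -0.08 (-0.47 to 0.31) for overexpression over cultures left without virus. It passed in no comparison.

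**Figure D4:**
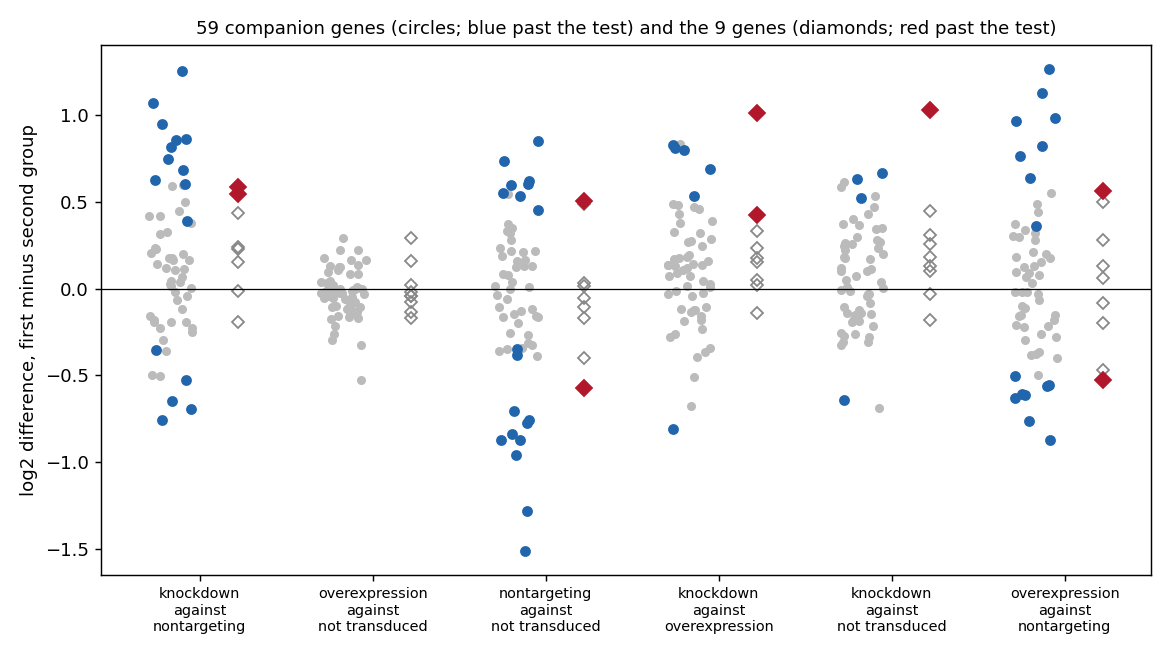
Log2 difference (y axis, first named group minus second) of the 59 tested companion genes (circles, blue where the limma adjusted p was under 0.05) and of the 9 genes (diamonds, red where it was) in the 6 comparisons (x axis). Companion genes reach 1.25 in knockdown against nontargeting and -1.51 in nontargeting against not transduced, while none is blue in overexpression against not transduced.

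Markers of other cells moved with several of these comparisons. Of 11 tested inhibitory interneuron genes, 6 rose and 1 fell in knockdown against nontargeting, 0 rose and 8 fell in nontargeting against not transduced, and 7 rose and 0 fell in overexpression against nontargeting. In knockdown against not transduced 0 rose and 6 fell (median -0.56), and in knockdown against overexpression 1 rose and 3 fell (median -0.41). Their summed level was 14.43 to 14.75 in knockdown, 15.29 to 15.66 in overexpression, 14.40 to 14.90 in nontargeting and 15.44 to 15.75 in not transduced samples. Of 10 tested astrocyte genes, 3 rose and 1 fell in knockdown against nontargeting. In nontargeting against not transduced 0 rose and 3 fell, and in overexpression against nontargeting 4 rose and 0 fell. In knockdown against not transduced and in knockdown against overexpression 1 rose and 0 fell each. Their summed level was 16.52 to 16.73 in knockdown, 16.83 to 17.14 in overexpression, 16.23 to 16.59 in nontargeting and 16.48 to 17.07 in not transduced samples. Gfap, the defining gene of the astrocyte list, averaged 11.28 in knockdown, 12.86 in overexpression, 12.85 in nontargeting and 12.25 in not transduced samples. Of 9 tested genes of the oligodendrocyte lineage, 3 rose and 0 fell in knockdown against nontargeting, 2 rose and 0 fell in overexpression against nontargeting, and 0 rose and 2 fell in nontargeting against not transduced. In knockdown against not transduced and in knockdown against overexpression 0 rose and 1 fell each. Over the 8 with a value in all samples, their summed level was 11.59 to 11.81 in knockdown, 11.62 to 11.76 in overexpression, 10.97 to 11.07 in nontargeting and 11.56 to 12.04 in not transduced samples, lowest in nontargeting as for Nrgn and Ppp3ca. Mbp, the defining gene of that list, averaged 8.16 in knockdown, 8.64 in overexpression, 8.49 in nontargeting and 8.68 in not transduced samples. The excitatory list had 1 of 8 genes higher and 0 lower in knockdown against nontargeting and 3 higher and 0 lower in nontargeting against not transduced. It had 3 higher and 0 lower in knockdown against not transduced, and 2 higher and 0 lower in knockdown against overexpression. In overexpression against nontargeting 0 were higher and 3 lower. Over the 6 with a value in all samples, their summed level was 13.36 to 14.11 in knockdown, 13.87 to 14.16 in overexpression, 13.53 to 13.80 in nontargeting and 13.58 to 14.07 in not transduced samples. Of 11 tested general neuron genes, 1 rose and 1 fell in knockdown against nontargeting. In knockdown against not transduced and in knockdown against overexpression 1 rose and 0 fell each. In nontargeting against not transduced 0 rose and 2 fell, and in overexpression against nontargeting 3 rose and 3 fell. Their summed level was 17.02 to 17.12 in knockdown, 16.77 to 16.88 in overexpression, 17.16 to 17.36 in nontargeting and 16.88 to 17.02 in not transduced samples. Of 4 tested microglial genes, 2 rose and 0 fell in overexpression against nontargeting, and 0 rose and 1 fell in knockdown against overexpression. In the other comparisons 0 rose and 0 fell. The part of all these cells in the Camk4, Nrgn and Ppp3ca differences was not tested.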

How the data were processed

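RNA from 16 samples was hybridised to two-colour Agilent arrays. The deposited scanner tables hold intensity values per spot and flags made by the authors with Agilent Feature Extraction 10.7.3.1, per the submitters' processing notes and the file headers. The deposited series matrix holds log2 values, which compared with the scanner values as log2 net signals centred on each sample's own median. It was used only as an alternative. The files of both dyes of an array are identical, and each sample's own dye was read.

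In R 4.3.3 with limma 3.58.1, background was corrected by normexp (offset 50), dyes by loess and arrays by Aquantile. Outlier-flagged spots were dropped and spots of a probe averaged. Kept probes were well above background in at least 4 samples, with at least 12 values and 2 in each group; 27294 of 41012 passed. Names came from the RefSeq accession (17512 probes), else symbol or synonym (3648 probes), else the array's name, and the brightest probe stands for a gene. The limma fit had group and dye as terms and array as a random block (correlation 0.57), with Benjamini-Hochberg adjustment over 22925 genes. On simulated data for knockdown against nontargeting, 83 of 100 genes changed by 1 log2 unit and 11 of 100 changed by 0.5 were called, with 3 unchanged genes called. In the data themselves 4921 genes were called in that comparison. The adjustment is stricter where fewer genes change, so the simulated shares do not carry over directly.

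Named were the 9 genes with all probes, the 4 largest passing rises and falls of the companion list, Camk2n1, defining cell markers, and the 3 genes most like a member whose group means span at least 1. Some named companion genes are not reported here. The members and lists were chosen with earlier results of these data known. Same-numbered samples deviated together in knockdown against nontargeting (r 0.14 to 0.25), knockdown against not transduced (0.17 to 0.26) and knockdown against overexpression (0.13 to 0.26), and replicate numbers also fix the dye. After removal of dye effects r was 0.07 to 0.15, 0.04 to 0.13 and 0.04 to 0.22. In the other 3 comparisons at least 1 pair was below 0.1. A label field names the dentate gyrus of hormone-treated adult rats. It contradicts the other labels, which name hippocampal cultures and the PRR7 lentiviruses, and was not used.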

Additional observations from a re-analysis of the deposited data

Results flagged for a closer look

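Among 52 groups of 4 values of the 9 genes, 4 held a sample far from the other 3, that is, its gap to the nearest of the others, divided by the group's range, exceeded Dixon's 95% critical value; chance gives about 1 in 20. Camk2a probe 2 was 9.27 in knockdown replicate 1, against 8.996 to 9.03 in the other knockdown samples. Ppp1r1b was 7.69 in overexpression replicate 2, against 7.78 to 7.79. Camk2b probe 1 was 14.55 in not transduced replicate 2, against 14.91 to 14.96. Ppp3ca probe 2 was 8.44 in not transduced replicate 1, against 8.81 to 8.87.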

How the results depend on the processing

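No difference of the 9 genes that passed the test changed direction under 35 alternatives; the series matrix and the processed signals replaced several steps at once. With 1 sample left out at a time, with the array correlation of the full fit kept, the number of the 9 genes called was 1 to 3 in knockdown against nontargeting, 0 to 0 in overexpression against not transduced, 1 to 4 in nontargeting against not transduced, 1 to 2 in knockdown against not transduced, 2 to 3 in overexpression against nontargeting and 1 to 3 in knockdown against overexpression. Counts over all genes were then 4259 to 5105, 0 to 2, 4390 to 5679, 1780 to 2891, 4493 to 5491 and 1809 to 2693 in the same order. With 1 array left out, the counts of the 9 genes were 0 to 3 in knockdown against nontargeting, in knockdown against overexpression and in overexpression against nontargeting, 0 to 1 in knockdown against not transduced and 1 to 2 in nontargeting against not transduced. Counts over all genes moved to 2766 and 3072 in knockdown against nontargeting (knockdown arrays), 951, 1087 and 1400 in knockdown against not transduced, 1006, 1152, 1044 and 1256 in knockdown against overexpression, 3421 in nontargeting against not transduced, 3039 and 3227 in overexpression against nontargeting, and 0, 6, 33, 38 and 41 in overexpression against not transduced. A minimum of 1.5-fold left 0 of the 9 genes in knockdown against nontargeting, 0 in nontargeting against not transduced, 0 in overexpression against nontargeting and 1 in knockdown against overexpression, and 3116, 3098, 3089, 1463 and, for knockdown against not transduced, 1481 of all genes, which follows from its construction.

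Loess without Aquantile called 9967 genes in knockdown against nontargeting, 203 in knockdown against overexpression, 2300 in nontargeting against not transduced, 2111 in overexpression against nontargeting and 0 in overexpression against not transduced, and 0 of the 9 genes in knockdown against overexpression, nontargeting against not transduced and overexpression against nontargeting. It moved the median of all genes to 0.63, 0.26, -0.21, 0.36 and 0.08 in these 5 comparisons and to 0.31 in knockdown against not transduced. Relative to it, Camk4 stood at 0.62 in knockdown against not transduced and 0.76 in knockdown against overexpression, and 14 differences of the 9 genes that had not passed turned sign. The series matrix called 5735 genes and 4 of the 9 in knockdown against overexpression, 6 genes in overexpression against not transduced, 2 of the 9 in knockdown against not transduced, 1 in nontargeting against not transduced and 1 (Camk4) in the difference of the same-slide comparisons; its medians were 0.36 in knockdown against overexpression, 0.20 in knockdown against not transduced, 0.16 in knockdown against nontargeting, -0.21 in overexpression against nontargeting and -0.17 in overexpression against not transduced. Processed signals called 0 of the 9 in knockdown against nontargeting, 1 in each of knockdown against overexpression, nontargeting against not transduced and overexpression against nontargeting, and 2 of all genes in overexpression against not transduced, with medians of -0.11, 0.14 and -0.15 in knockdown against nontargeting, nontargeting against not transduced and overexpression against nontargeting. With each array as 1 value, which leaves fewer samples, 1026 genes were called in knockdown against not transduced, 1054 in knockdown against overexpression and 0 in overexpression against not transduced, and 0, 1 and 1 of the 9 in knockdown against nontargeting, knockdown against overexpression and overexpression against nontargeting. The groups compared alone gave 4123 genes in knockdown against overexpression, 3248 in nontargeting against not transduced and 0 in overexpression against not transduced, and 1 of the 9 in nontargeting against not transduced. The mean of all probes gave 1 of the 9 in knockdown against overexpression and in overexpression against nontargeting and 0 genes in overexpression against not transduced; no background correction and quantile normalization each gave 1 of the 9 in knockdown against overexpression. Other causes were not tested. The replicate block gave 5703 genes in knockdown against nontargeting and 3 of the 9 in nontargeting against not transduced, where Ppp3ca passed (-0.40; limma adjusted p = 0.0445); it changed no other call of the 9 genes. Camk2d and Camk2b probe 3 lie near background, which limits what their differences can show.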
